A study of Mus musculus with 6 samples.

Results

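The 45 genes described here encode transcription factors and cofactors of the heart: a pan-cardiac core, activators of muscle genes, factors of the ventricular and atrial chambers, factors of the conduction system and sinus node, and factors of the outflow tract and epicardium. They were chosen by name as known cardiac regulators, with earlier results of these data at hand. All 45 were measured among the 18193 genes of the array. Ventricles of 6 mice were profiled on Affymetrix mouse genome arrays, 1 array for each mouse. The 3 OE mice carried Myh6-MerCreMer, a tamoxifen-inducible Cre recombinase driven by the promoter of the cardiomyocyte gene Myh6, together with the CAG-S-COUP-TFII allele, from which Cre switches on COUP-TFII (Nr2f2). The 3 CTRL mice carried Myh6-MerCreMer alone. All mice, male by the general statement of the methods, were of a 129SvEv/C57Bl6/J mixed background, had tamoxifen at 40 mg/kg/day for 3 days from the age of 2 months, and gave their ventricles at day 16 after the first dose, at a labelled age of 2.5 months. CTRL mice therefore share the Cre and the drug with OE mice. Cre acts in cardiomyocytes, whereas RNA came from whole ventricles, so a fall in a factor carried by fewer cells and a fall in RNA per cell cannot be told apart.

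The core of the cardiac programme is a set of factors, among them GATA4, NKX2-5, TBX5, TBX20, HAND2 and MEF2 proteins, that bind together at the enhancers of contractile genes. Chamber and conduction identity is laid over this core by Iroquois, HEY and T-box factors, some of which act as repressors. COUP-TFII is a nuclear receptor of atrial cardiomyocytes, where it holds the atrial programme against the ventricular one, and it binds DNA at repeats of the half-site AGGTCA.

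Because COUP-TFII binds this half-site, the letters AGGTCA were searched on both strands (reverse complement TGACCT, with no overlap between these patterns) in the promoter windows of RefSeq, build GRCm38.p6, which run from 250 bases before to 50 bases after a transcription start. Windows were at hand for 29 of the 45 genes (38 windows), and 4 of those windows, of 3 genes (Casz1, Mef2c and Mrtfb), held the motif, or 10.53%, against 16.26% of the 32851 windows of all genes. The windows printed here stand for the strongest fall among the factors (both starts of Hopx), a factor that was higher (Nkx2-5), the single factor with a changed level and a motif (Casz1) and the window with 2 motifs (Mef2c). Capitals mark the motif.
Hopx, chr5:77115074-77115373, minus strand, no motif: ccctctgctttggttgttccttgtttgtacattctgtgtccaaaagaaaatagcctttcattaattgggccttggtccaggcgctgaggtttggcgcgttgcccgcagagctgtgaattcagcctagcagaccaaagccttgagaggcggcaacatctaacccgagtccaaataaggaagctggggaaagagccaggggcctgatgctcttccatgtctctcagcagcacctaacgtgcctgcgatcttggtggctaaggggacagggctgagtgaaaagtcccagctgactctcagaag
Hopx, chr5:77095218-77095517, minus strand, no motif: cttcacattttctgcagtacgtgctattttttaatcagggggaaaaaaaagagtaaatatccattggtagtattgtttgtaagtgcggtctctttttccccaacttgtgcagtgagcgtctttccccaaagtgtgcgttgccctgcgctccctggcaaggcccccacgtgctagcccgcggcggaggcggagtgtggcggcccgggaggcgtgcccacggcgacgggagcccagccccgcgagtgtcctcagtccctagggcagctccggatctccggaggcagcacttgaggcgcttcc
Nkx2-5, chr17:26841516-26841815, minus strand, no motif: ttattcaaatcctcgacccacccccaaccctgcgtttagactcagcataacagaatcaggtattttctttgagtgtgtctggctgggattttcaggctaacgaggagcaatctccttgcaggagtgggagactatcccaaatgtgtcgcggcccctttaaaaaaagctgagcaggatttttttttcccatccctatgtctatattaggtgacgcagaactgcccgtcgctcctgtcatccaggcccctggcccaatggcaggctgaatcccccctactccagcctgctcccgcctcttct
Casz1, chr4:148889097-148889396, plus strand: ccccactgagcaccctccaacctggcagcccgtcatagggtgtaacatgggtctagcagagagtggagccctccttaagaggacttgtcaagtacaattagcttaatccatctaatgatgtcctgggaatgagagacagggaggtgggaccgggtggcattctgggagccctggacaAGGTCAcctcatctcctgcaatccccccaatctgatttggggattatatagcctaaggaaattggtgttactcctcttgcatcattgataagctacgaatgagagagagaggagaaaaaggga
Mef2c, chr13:83573357-83573656, plus strand: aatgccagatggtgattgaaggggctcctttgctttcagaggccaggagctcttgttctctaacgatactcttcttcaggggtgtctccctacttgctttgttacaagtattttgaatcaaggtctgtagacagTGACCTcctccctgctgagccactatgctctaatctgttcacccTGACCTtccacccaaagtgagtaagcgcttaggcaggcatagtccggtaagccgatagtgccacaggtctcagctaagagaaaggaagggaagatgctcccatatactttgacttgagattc

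The Casz1 motif starts at position -73 from the start site of the printed window, on the strand of the gene. Another Casz1 window, not printed, held no motif. Both motifs of the printed Mef2c window lie upstream of its start, on the opposite strand. Of the 10 factors with a changed level and a window, 1 held the motif. A match is a string of letters and not a measured binding site. The windows of the factors, again without chr18, were rich in CpG. Their median was 22.5 CpG dinucleotides, against 7.0 over the windows of all genes.

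Values are log2 intensities from which the authors had subtracted the median of the same probe set in the 6 arrays, so a value of 0 is that median and no value gives an expression level. Whether a marker of ventricular muscle is present could therefore not be read from them. Differences were tested with limma, a linear model with variances shared across genes, and a gene was called where its p, adjusted by the Benjamini-Hochberg method over all 18193 genes, lay below 0.05. Arrays of the same group lay 0.19 to 0.22 apart in OE and 0.21 to 0.23 apart in CTRL as root mean square log2 distance, whereas arrays of different groups lay 0.37 to 0.43 apart. Over all genes 26.7% were called, 14.9% higher in OE and 11.8% lower, and the median log2 change was -0.03. Nr2f2 had 6 probe sets, and the 1 that moved had log2 values of 1.72, 1.60 and 1.91 in OE against -1.99, -1.60 and -1.65 in CTRL, a log2 change of 3.49 (adjusted p = 2.57e-05 over probe sets). The other Nr2f2 probe sets had changes between -0.34 and -0.13 and none was called. Which of the 6 can detect the mRNA of the transgene was not checked here.

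Among the 45 factors, 4 were higher in OE (Nkx2-5, Gata4, Foxc2 and Tbx18) and 11 were lower (Hopx, Irx3, Mef2a, Mef2d, Tbx3, Prox1, Meis1, Prdm16, Tbx5, Hand1 and Casz1). These are 8.89% and 24.4% of the list, against the 14.9% and 11.8% of all genes, and 33.3% were called in either direction against 26.7%. The median log2 change of the list was -0.15, and 68.9% of its changes were negative, compared with 55.8% over all genes. The 3 OE arrays all lay above the CTRL arrays for 5 factors and all below them for 15, or 44.4% of the list without overlap against 45.6% of all genes. Over all 18193 genes they lay above for 4009 and below for 4287. The list thus held a share of separated genes like that of the array, with more of them on the lower side, a difference between the list and the rest that was not tested.

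**Figure D1:**
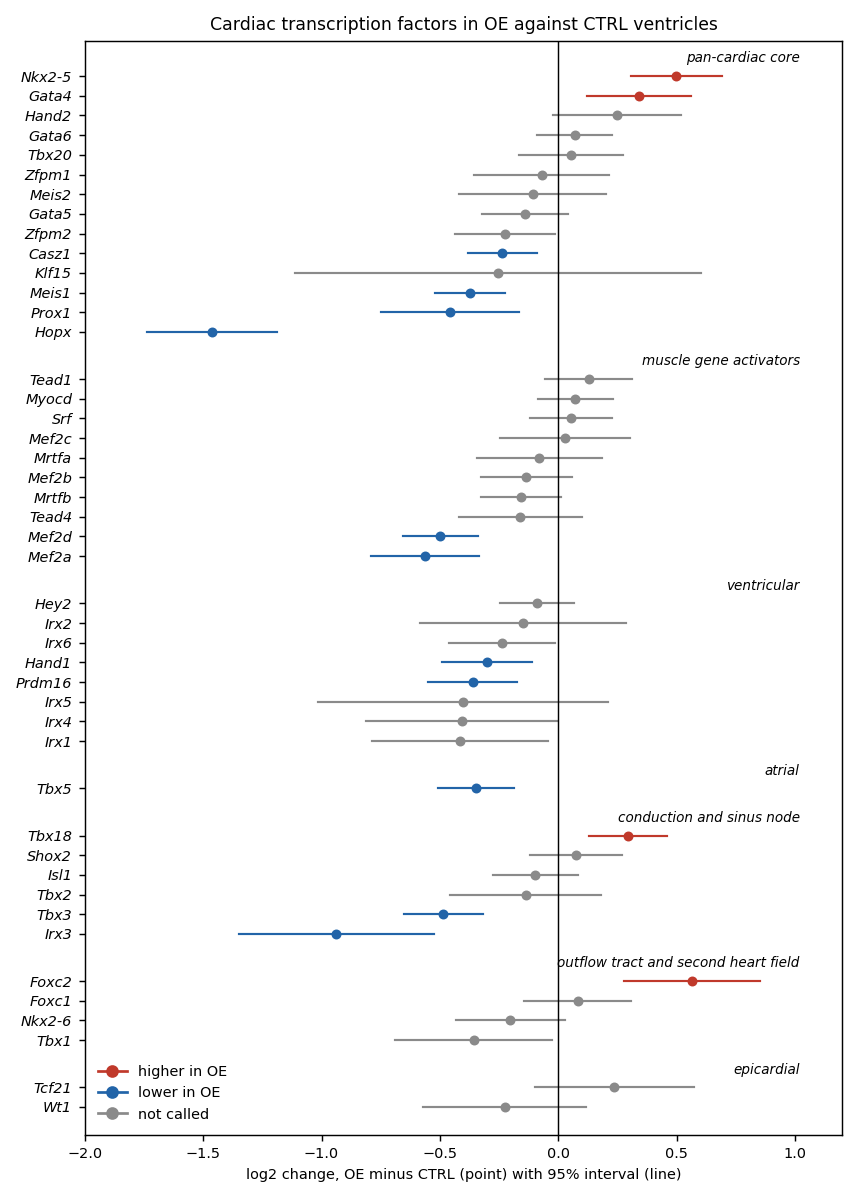
Log2 change (horizontal axis, OE minus CTRL) of the 45 factors by class, points with 95% intervals from limma, coloured by call (3 arrays per group). Hopx at -1.46 stands furthest from 0, all 8 ventricular factors lie below 0, and 4 factors were called higher.

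Hopx, an atypical homeodomain protein that binds no DNA itself and acts with serum response factor, had the largest change of the list. Its log2 values were -0.96, -0.57 and -0.74 in OE, against 0.70, 0.87 and 0.57 in CTRL. The groups were far apart, with more than a log2 unit between the nearest arrays. The change was -1.46 (SE 0.118, adjusted p = 0.00032, limma), a 2.76-fold lower level, and it ranked 35 among 18193 genes by the size of its fall. Both of its probe sets were called, with changes of -1.51 and -1.42.

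Nkx2-5, the homeobox factor of the cardiac core, moved the other way. It had log2 values of 0.43, 0.19 and 0.19 in OE and -0.19, -0.24 and -0.25 in CTRL. Every OE array lay above every CTRL array, and the change was 0.50 (SE 0.083, adjusted p = 0.0050, limma), or 1.41-fold higher. Gata4, the zinc finger partner of NKX2-5, had values of 0.14, 0.37 and 0.08 in OE and -0.22, -0.05 and -0.16 in CTRL. These arrays did not overlap either, with a change of 0.34 (SE 0.095, adjusted p = 0.034, limma). The Gata4 value is the mean of probe sets that differed: one had a change of 0.68 and was called, the other had -0.00 and was not. The Gata4 call did not hold when OE 1, OE 2, CTRL 1 or CTRL 3 was left out, with adjusted p up to 0.102 over the 6 omissions.

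Of the same core, Meis1, a TALE homeobox cofactor, was lower. Its values were -0.24, -0.20 and -0.14 in OE, against 0.18, 0.17 and 0.18 in CTRL, where the 3 arrays lay nearly on one value. The change was -0.37 (SE 0.064, adjusted p = 0.0056, limma), while its paralogue Meis2 had -0.11 and was not called (adjusted p = 0.58). Prox1, a homeobox factor needed for sarcomere structure, had values of -0.42, -0.02 and -0.47 in OE and 0.28, 0.11 and 0.08 in CTRL. OE 2 was close to the CTRL arrays, without overlap, and the change was -0.46 (SE 0.125, adjusted p = 0.032, limma). Casz1, a zinc finger factor that interacts with TBX5, had values of -0.09, -0.14 and -0.08 in OE and 0.11, 0.17 and 0.11 in CTRL. It was the smallest called change of the list, at -0.24 (SE 0.063, adjusted p = 0.028, limma). The Casz1 call was lost on leaving out any of the 6 arrays, with adjusted p between 0.0566 and 0.0818, and that of Prox1 on leaving out OE 1, OE 3, CTRL 1 or CTRL 2, with adjusted p up to 0.103.

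The other core factors did not pass the threshold. Gata5 had a change of -0.14, Gata6 0.07, Tbx20 0.05, Hand2 0.25, Zfpm1 -0.07 and Zfpm2 -0.23, with adjusted p between 0.105 and 0.707. The last pair are the Friend of GATA cofactors, and Zfpm2 was called once CTRL 3 was left out, at -0.32 (adjusted p = 0.0298). Klf15, a Krüppel-like repressor of hypertrophic genes that follows the circadian clock, had the widest spread of all 45. Its values were -0.10, -0.87 and 0.10 in OE and 0.33, 0.43 and -0.86 in CTRL. One array of each group was low, and the range among CTRL arrays exceeded that of 99.6% of genes. The change was -0.26 (SE 0.37, adjusted p = 0.64, limma) and turned to 0.03 when OE 2 was left out.

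**Figure D2:**
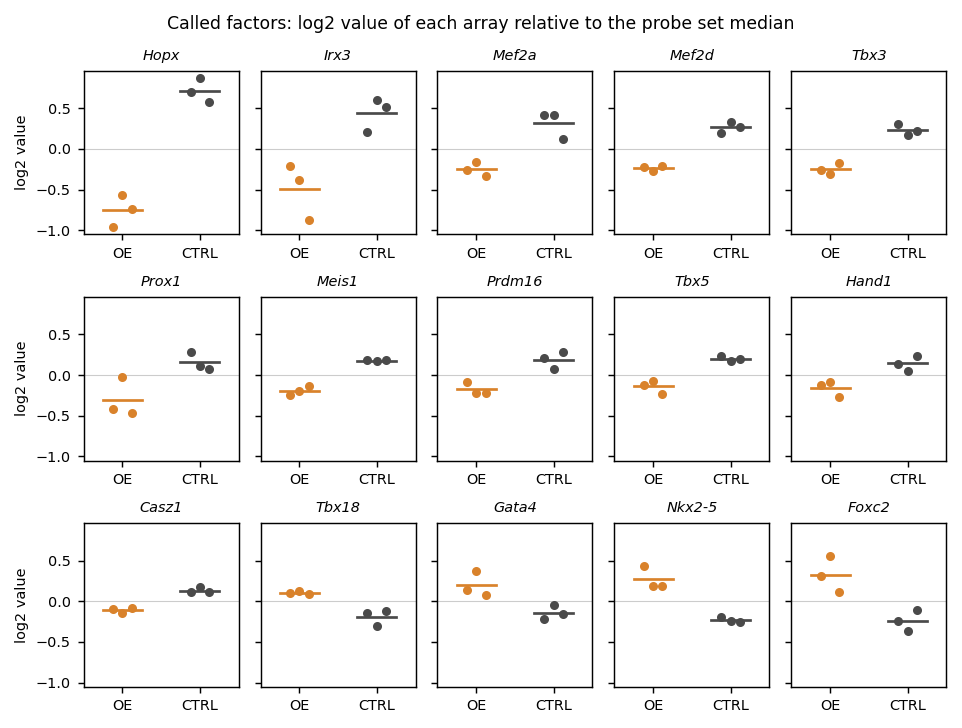
Log2 value of each array relative to the probe set median (vertical axis) for the 15 called factors, 3 OE arrays left of 3 CTRL arrays, with bars at the group means. No OE point overlaps a CTRL point in any of these panels, and the distance between groups is widest for Hopx.

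The activators of muscle genes comprise the MEF2 proteins, serum response factor (Srf) with its coactivators myocardin (Myocd) and the actin-sensing Mrtfa and Mrtfb, and the TEAD factors of the Hippo pathway. Of these 10, 2 were lower and none was higher, and both were MEF2 genes. This is 20% called, all of them lower, against 26.7% called and 11.8% lower over all genes. Mef2a, the main MEF2 gene of the adult heart muscle, had values of -0.26, -0.16 and -0.33 in OE and 0.41, 0.41 and 0.12 in CTRL. All OE arrays lay below all CTRL arrays, with a change of -0.56 (SE 0.098, adjusted p = 0.0059, limma). Its 6 probe sets, the most of any factor, ran from -0.66 to -0.46 and 5 were called. Mef2d, which drives the response of the adult heart to stress, had values of -0.22, -0.27 and -0.21 in OE and 0.19, 0.33 and 0.27 in CTRL. The groups were again apart, with a change of -0.50 (SE 0.068, adjusted p = 0.0021, limma), and its probe sets ran from -0.80 to -0.31. Mef2b at -0.14 and Mef2c at 0.03 were not called (adjusted p = 0.26 and 0.88).

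The class II histone deacetylases bind and silence MEF2 proteins. Of 8 measured corepressors and partners of MEF2, 1 was lower (12.5%, against 11.8% of all genes) and none higher, and the list's median was -0.12. Hdac7 was that gene, at -0.24 (adjusted p = 0.047, limma), a call that was kept under 4 of 13 alternatives and lost without any 1 array but OE 3 (adjusted p up to 0.128), while Hdac9 at -0.25 and Hdac4 at -0.19 were not called.

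Srf, Myocd, Mrtfa and Mrtfb had changes of 0.05, 0.07, -0.08 and -0.16, and none was called (adjusted p between 0.146 and 0.63). The 95% interval of the Srf change ran from -0.12 to 0.23 and that of Myocd from -0.08 to 0.23. A list of 12 known targets of these factors was chosen with earlier results of these data known. Of these, 6 were higher (50%, against 14.9% of all genes) and 1 was lower (8.33%, against 11.8%). The other 5 were not called, among them Actc1, cardiac actin, at 0.06. Cnn1, calponin of smooth muscle, had values of 2.56, 2.62 and 2.16 in OE and -2.37, -2.97 and -2.16 in CTRL, a change of 4.94 (adjusted p = 5.42e-05, limma), which is the largest rise of all genes. Myl9 at 2.78, Acta2 at 1.08 and Tagln at 0.82, all of the contractile apparatus of smooth muscle, were called as well. Other contractile genes of smooth muscle, named here after their values were seen, were lower, Smtn at -0.87 and Myh11 at -0.34, and Lmod1 at -0.25 was not called. The median over 10 markers of smooth muscle and pericytes was -0.27. Fhl2, a LIM protein of ventricular muscle, was lower at -0.43, a call that was lost without OE 2, OE 3, CTRL 1 or CTRL 2 (adjusted p up to 0.0802). Acta1, skeletal actin, had values of -0.05, 0.91 and 0.05 in OE and -1.52, -1.29 and 0.85 in CTRL. CTRL 3 overlapped the OE arrays, and the change of 0.96 was not called (adjusted p = 0.26), though it was 1.71 and called without CTRL 3.

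Tead1 and Tead4, the DNA-binding partners of YAP and TAZ, had changes of 0.13 and -0.16 and were not called (adjusted p = 0.26 and 0.32). Of 13 measured coactivators and genes of the Hippo pathway, also chosen with earlier results known, 6 were higher and none was lower. This is 46.2% higher, against 14.9% higher and 11.8% lower over all genes. Ccn1 at 2.01, Ccn2 at 1.45, Ankrd1 at 1.10 and Vgll3 at 0.91 had the largest changes. The first 3 are known targets of TEAD with YAP. Ccn2 had values of 0.31, 0.45 and 0.38 in OE and -0.59, -0.31 and -2.30 in CTRL, with CTRL 3 far below the rest. Its change was 0.83 without CTRL 3 and still called, but the call was lost without CTRL 1 or any 1 of the OE arrays (adjusted p up to 0.112). Yap1 (0.38) and Wwtr1 (0.42), which encode YAP and TAZ and are named here after their values were seen, were also higher. These calls were kept under 4 and 6 of 13 alternatives, with adjusted p up to 0.112 and 0.0824 when 1 array was left out. Neither Yap1 probe set, at 0.21 and 0.55, was called by itself. The other genes of the list were not called, among them the kinase Stk4 (0.25, adjusted p = 0.0511) and the cofactor Vgll4 (-0.04).

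All 8 ventricular factors had negative changes, from -0.42 to -0.09 with a median of -0.33, and 2 of them were called, or 25%, against 26.7% called and 55.8% negative over all genes. Prdm16, a factor of compact ventricular myocardium, had values of -0.08, -0.22 and -0.22 in OE and 0.21, 0.07 and 0.28 in CTRL. The change was -0.36 (SE 0.081, adjusted p = 0.015, limma), without overlap. Hand1, a basic helix-loop-helix factor of the left ventricle, had values of -0.12, -0.08 and -0.27 in OE and 0.14, 0.05 and 0.24 in CTRL. The arrays did not overlap, and the change was -0.30 (SE 0.082, adjusted p = 0.031, limma), a call lost without OE 1, OE 3, CTRL 1 or CTRL 3 (adjusted p up to 0.0885). Hey2, the Notch-responsive repressor of atrial genes in the ventricle, had -0.09 with a 95% interval from -0.24 to 0.07 and was not called.

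The other 5 ventricular factors are Iroquois homeobox genes, which with Irx3 make up a family of 6 in a pair of gene clusters (Irx1, Irx2 and Irx4 in one; Irx3, Irx5 and Irx6 in the other, with no protein-coding gene between neighbours in the RefSeq annotation). All 6 had negative changes, with a median of -0.41, and 1 was called. This is 16.7% called, against 26.7% called and 55.8% negative over all genes. Irx3, which sets fast conduction in the His and Purkinje fibres, had values of -0.21, -0.38 and -0.88 in OE and 0.21, 0.60 and 0.52 in CTRL. OE 3 was the lowest, and all OE arrays were below all CTRL arrays. The change of -0.94 (SE 0.178, adjusted p = 0.0082, limma), or 1.91-fold lower, was the second largest fall among the factors. It rests on 1 probe set. Irx1, Irx4 and Irx5 had changes of -0.42, -0.41 and -0.40, with adjusted p of 0.094, 0.121 and 0.288. Irx2 and Irx6 had -0.15 and -0.24 (adjusted p = 0.58 and 0.106).

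Array CTRL 3 stood apart in these genes. Irx4, the ventricle-restricted member of the family, had values of -0.19, 0.03 and -0.31 in OE and 0.14, -0.03 and 0.65 in CTRL. Irx5, a repressor that shapes the repolarisation gradient across the wall, had values of 0.05, -0.05 and -0.41 in OE and -0.27, 0.21 and 0.87 in CTRL. In both the groups overlapped, and CTRL 3 was the highest of the 6 arrays. CTRL 3 exceeded the mean of CTRL 1 and CTRL 2 by 0.55 for Irx1, 0.72 for Irx2, 0.60 for Irx4 and 0.90 for Irx5, but by 0.11 for Irx3, and for Irx6 it was lower, at -0.30. Without CTRL 3 the changes were -0.23 for Irx1, 0.09 for Irx2, -0.21 for Irx4 and -0.10 for Irx5, whereas that of Irx3 was -0.90 and that of Irx6 was -0.34, then called (adjusted p = 0.0228). Markers of other cell types were high in CTRL 3 as well. It was the highest CTRL array for all 8 markers of the epicardial mesothelium, whose mean was 0.56 in CTRL 3, against 0.01 and -0.23 in CTRL 1 and CTRL 2. The means of fibroblast markers (-0.26 in CTRL 3, against -0.73 and -0.67), endothelial markers (0.34, against 0.11 and 0.22) and smooth muscle and pericyte markers (-0.03, against -0.32 and -0.34) were also the highest of the CTRL arrays there. Their part in the Iroquois values was not tested. Over the list of cardiac factors CTRL 3 was not a high array, since it was the highest CTRL array for 16 of 45 factors (35.6%) and for 33.4% of all genes.

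**Figure D3:**
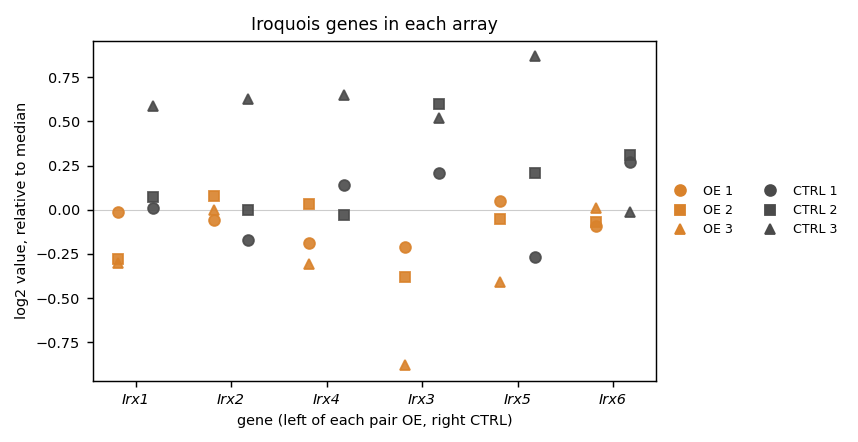
Log2 value relative to the median (vertical axis) of the 6 Iroquois genes in each array, OE left and CTRL right in each pair, with a symbol for each replicate number. CTRL 3 (dark triangles) is the highest array for Irx1, Irx2, Irx4 and Irx5, at 0.59 to 0.87, and all OE points of Irx3 lie below its CTRL points.

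Tbx5, the T-box factor of the atria, left ventricle and conduction system, was the single factor placed in the atrial class. It had values of -0.12, -0.07 and -0.23 in OE, against 0.23, 0.17 and 0.20 in CTRL. No arrays overlapped, and the change was -0.35 (SE 0.069, adjusted p = 0.010, limma). Its probe sets differed, one at -0.65 and called, the other at -0.04 and not. Tbx3, which neighbours Tbx5 in the genome and keeps working myocardial genes off in the conduction system, was lower too. Its values were -0.26, -0.31 and -0.18 in OE and 0.31, 0.17 and 0.22 in CTRL. The groups lay apart, with a change of -0.49 (SE 0.072, adjusted p = 0.0031, limma), and its 5 probe sets ran from -1.07 to -0.08 with 3 called.

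Tbx18, a factor of the sinus horn and epicardium, was the T-box gene that was higher. It had values of 0.10, 0.12 and 0.09 in OE and -0.15, -0.30 and -0.12 in CTRL, a change of 0.29 (SE 0.071, adjusted p = 0.021, limma). The OE arrays lay close together and above all CTRL arrays, and the call was lost without OE 1, OE 2 or CTRL 2 (adjusted p up to 0.0623). Tbx2, a repressor of chamber genes, had -0.14, Shox2, a factor of the sinus node, 0.07, and Isl1, of the sinus node and second heart field, -0.10, and none was called (adjusted p between 0.386 and 0.54). Of the 6 T-box genes, 1 was higher and 2 were lower, with Tbx1, Tbx2 and Tbx20 not called. Among the 6 conduction and sinus node factors the count was 1 higher (Tbx18) and 2 lower (Irx3 and Tbx3). In each of these sets, which share Tbx2, Tbx3 and Tbx18, 50% were called, against 26.7% of all genes. Of 8 measured functional genes of the conduction system, 2 were higher and 2 were lower, 25% each way, against 14.9% and 11.8% of all genes. The higher ones were Id2 (1.16) and the channel subunit Kcne1 (0.53). The lower ones were the T-type calcium channels Cacna1g (-0.67) and Cacna1h (-0.24), while Gjc1 (0.15) and Cntn2 (-0.16) were not called. When single arrays were left out, Id2 kept its call (adjusted p up to 0.0287), though not under a one-way analysis of variance, whereas Kcne1 lost it for every array but CTRL 3, Cacna1h for every array but OE 2, and Cacna1g without OE 1, OE 3, CTRL 1 or CTRL 3, with adjusted p up to 0.0933.

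Of the 4 factors of the outflow tract and second heart field, 1 was called, or 25% against 26.7% of all genes. Foxc2, a forkhead factor also found in lymphatic vessels, was that factor and was higher. It had values of 0.31, 0.56 and 0.11 in OE and -0.24, -0.37 and -0.11 in CTRL. The arrays did not overlap, though OE 3 came near to CTRL 3, and the change was 0.57 (SE 0.124, adjusted p = 0.014, limma), the largest rise of the list. Its paralogue Foxc1 had 0.08 and Nkx2-6 had -0.20, neither called (adjusted p = 0.56 and 0.167). Tbx1, the factor of the pharyngeal second heart field, had -0.36 (adjusted p = 0.103) with values of -0.00, -0.61 and -0.24 in OE and 0.00, 0.14 and 0.08 in CTRL, and was called, at -0.50, once OE 1 was left out (adjusted p = 0.0384). The epicardial factors Tcf21, also a factor of resident fibroblasts, and Wt1 had changes of 0.24 and -0.23 and were not called (adjusted p = 0.257 and 0.289). None of 8 genes of the epicardial mesothelium was called either, with list means of -0.21 to 0.14 in OE and -0.23 to 0.56 in CTRL.

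Single probe sets of a factor did not always move with its mean. The 45 factors had 98 probe sets, 30 factors having several and 15 having 1, and 6 probe sets were called higher and 24 lower, or 30.6% against 24.4% of the 34945 probe sets tested. No factor had probe sets called in opposite directions. Of the 12 called factors with several probe sets, Hopx alone had every one of them called. Prox1 had probe sets at -0.75, -0.63 and 0.00. Factors that were not called had a called probe set in 3 cases: Gata6 had one at -0.40 beside a pair at 0.31, Hand2 had one at 0.53 beside 0.22 and -0.00, and Tead1 had one at 0.45 beside -0.20. A gene mean near 0 for Gata6 or Tead1 is therefore an average over probe sets of opposite sign. One probe set assigned to both Borcs8 and Mef2b was not used.

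**Figure D4:**
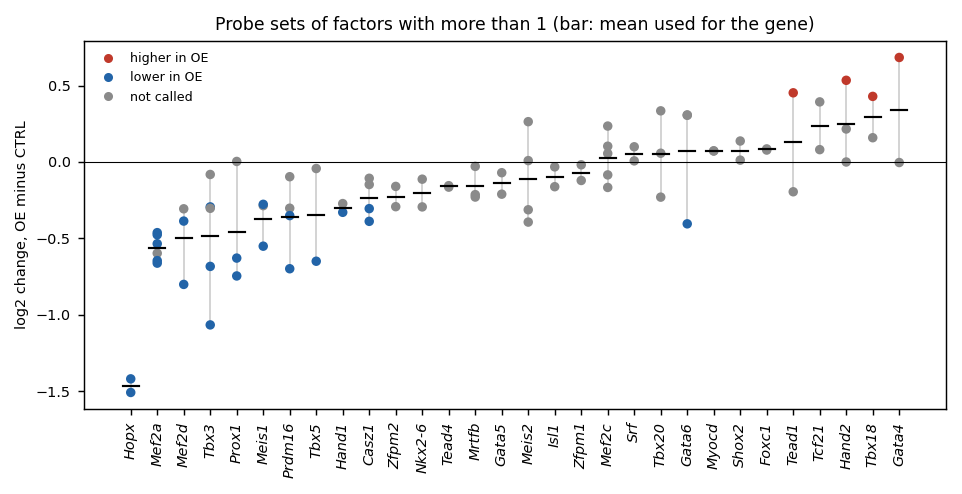
Log2 change (vertical axis, OE minus CTRL) of each probe set of the 30 factors with several, coloured by call, with a bar at the mean used for the gene. Hopx and Mef2a probe sets lie close together, while those of Gata6 run from -0.40 to 0.31 and those of Tead1 from -0.20 to 0.45.

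Of 12 measured atrial chamber genes, 5 were higher (41.7%), 2 were lower (16.7%) and 5 were not called, with a median log2 change of 0.04. Of 7 ventricular chamber genes, 5 were lower (71.4%) and none was higher, with a median of -0.58. Over all genes 14.9% were higher and 11.8% lower, with a median of -0.03. The atrial and ventricular lists were chosen with earlier results of these data known, and the difference between them was not tested. Myl4, the atrial essential light chain, had values of 1.40, 1.10 and 1.64 in OE, against -1.15, -1.13 and -1.25 in CTRL. It changed by 2.56 (SE 0.129, adjusted p = 8.51e-05, limma), or 5.89-fold, as the mean of a probe set at 5.27 and one at -0.16 that was not called. Dkk3 (1.89), Nppa (1.29) and the regulatory light chain Myl7 (1.10) followed. Of the same list, the potassium channel Kcna5 (-0.68) and the connexin Gja5 (-0.33) were lower. Kcna5 was not called without CTRL 1 or CTRL 2, and Gja5 was not without OE 1, OE 3, CTRL 1 or CTRL 2 (adjusted p up to 0.1004). Myl3, the essential light chain of the ventricle, had values of -0.60, -0.26 and -0.52 in OE and 0.26, 0.30 and 0.32 in CTRL, a change of -0.75 (SE 0.097, adjusted p = 0.0016, limma). Kcnip2 (-0.72), Pln (-0.65) and Myl2 (-0.58), of ventricular repolarisation, calcium uptake and contraction, were lower too, and Kcnj2 (-0.14) and Gja1 (-0.06) were not called. The atrial light chains were thus higher in OE and the ventricular ones lower.

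**Figure D5:**
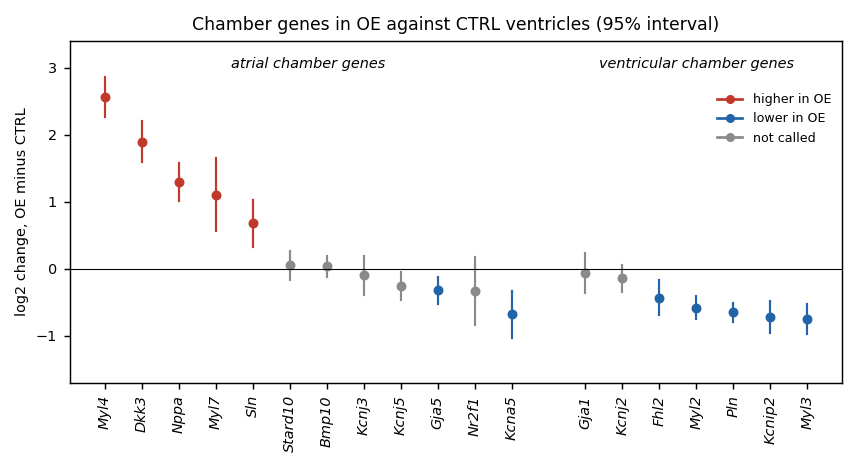
Log2 change (vertical axis, OE minus CTRL, with 95% intervals) of 12 atrial and 7 ventricular chamber genes, coloured by call. The 5 atrial genes called higher are led by Myl4 at 2.56, and the 5 ventricular genes called lower lie between -0.75 and -0.43.

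Markers of other cell types moved with the groups as well. Their counts stand beside 14.9% higher and 11.8% lower over all genes. Of 10 markers of each type, those of fibroblasts were higher for 7 and lower for 1, with list means of 0.25 to 0.41 in OE and -0.73 to -0.26 in CTRL. Macrophage markers were higher for 5, with means of 0.08 to 0.38 in OE and -0.39 to -0.13 in CTRL. Cardiomyocyte markers were lower for 6 and higher for 1, with means of -0.25 to -0.18 in OE and 0.12 to 0.26 in CTRL. Endothelial markers were lower for 5, with means of -0.21 to 0.01 in OE and 0.11 to 0.34 in CTRL. Markers of smooth muscle and pericytes were higher for 4 and lower for 4, with means of 0.11 to 0.24 in OE and -0.34 to -0.03 in CTRL. The distance between these last means rests on Cnn1, at 4.94, whereas the median change of the 10 was -0.27 and 6 were negative. The part of these cell types in the changes of the factors was not tested. Among gene means of cardiomyocyte markers the change of Hopx was exceeded by none, Myh6 coming nearest at -1.31 (adjusted p = 0.00014, limma). The Myh6 mean is over probe sets at -2.17 and -0.44, the first of which fell further than either Hopx probe set (-1.51 and -1.42).

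How many factors were called depended on the scale. With each array centred on its ribosomal protein genes, 1 factor was higher and 25 were lower, and over all genes 1346 were higher and 8748 lower with the median moving to -0.24. Under that scale Nkx2-5 was the single factor still called higher, and Gata6, Tbx20, Mef2c, Srf, Myocd, Tead1, Shox2 and Foxc1 had negative changes. Of the 15 called factors, 7 kept their call and direction under all 13 alternatives run: Nkx2-5 on the higher side, and Hopx, Mef2a, Mef2d, Meis1, Tbx3 and Tbx5 on the lower. Nkx2-5 had 1 probe set, so dropping shared probe sets or taking that of largest variance left its log2 change as it was.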

How the data were processed

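RNA of whole ventricles from 3 OE and 3 CTRL mice had been hybridised to Affymetrix mouse genome arrays. The authors made the deposited log2 values in GeneSpring GX: probes were summarized by RMA, arrays were quantile normalized, and each probe set was set relative to its median in all samples. The base of the logarithm is not given in the sources used here and was taken as 2, and raw intensities were not used here. Of 45101 probe sets, 34945 named a single gene and were not array controls (932 named several genes, 9211 named none, and 13 array controls with a gene name were left out). They were averaged to 18193 genes, of which 162 kept the symbol of the array annotation. Groups came from the genotype labels.

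OE was compared with CTRL in limma 3.58.1 (lmFit and eBayes, R 4.3.3), two-sided, with Benjamini-Hochberg adjustment over all genes, or over all probe sets for single probe sets, at 0.05. The script was tested on simulated data. The methods' filter on raw intensity could not be applied. Tables were joined with pandas 2.3.3. Alternatives were a one-way analysis of variance, array weights, no probe sets shared among transcripts, the probe set of largest variance, centring on 41 ribosomal protein genes or on the array median, a replicate block, and leaving out each array. All arrays share the precision that 3 per group allow, and with 3 against 3 no exact permutation test of a single gene can go below 0.1.

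The members, their classes and the lists of other genes were chosen with earlier results of these data known. Every member is named. From each other list up to 4 called genes with the largest change and up to 2 that were not called or went the other way are named, and marker lists are given by counts and group means. Separate mice are taken as replicates from the labels.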

Additional observations from a re-analysis of the deposited data

How the results depend on the processing

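A one-way analysis of variance without shared variances called 2 factors higher and 7 lower, and 1437 genes higher and 1125 lower over the array, against 4 and 11 factors and 2709 and 2152 genes with limma; Gata4, Prox1, Hand1, Prdm16, Irx3 and Foxc2 were lost. Among the other genes named, Myl7, Kcna5, Gja5, Id2, Cacna1g, Kcne1, Fhl2, Hdac7, Ccn1, Ccn2, Vgll3, Yap1 and Wwtr1 lost their call in it. Centring on ribosomal protein genes gave 1 and 25 factors and 1346 and 8748 genes, and moved the class medians to -0.33 for the core, -0.31 for muscle gene activators, -0.54 for ventricular, -0.32 for conduction and -0.27 for outflow factors. It turned Gata6 to -0.14, Tbx20 to -0.15, Mef2c to -0.18, Srf to -0.15, Myocd to -0.13, Tead1 to -0.077, Shox2 to -0.13 and Foxc1 to -0.12, and Gata4, Tbx18 and Foxc2 lost their call. With the probe set of largest variance 6 factors were higher and 12 lower: Hand2 (0.53, adjusted p = 0.0201) and Tead1 (0.45, 0.014) were then called higher and Gata6 (-0.40) lower, Tbx20 was -0.23, and the core median was -0.27.

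Leaving out 1 array at a time gave 2 to 4 factors higher (2 without OE 1 or OE 2) and 8 to 11 lower, with 1830 to 2371 genes higher and 1243 to 1731 lower, the lowest without OE 1. The genes called lower also numbered 1402 without OE 3 and 1400 without CTRL 1. Class medians ran from -0.17 (without OE 1) to -0.0905 for the core, from -0.15 (without OE 3) to -0.061 (without CTRL 1) for muscle gene activators, from -0.38 to -0.22 for ventricular, from -0.16 to -0.042 for conduction and from -0.14 to -0.01 for outflow factors. Signs turned at one end of the range for Srf (-0.0038 to 0.10), Foxc1 (-0.022 to 0.15), Tbx20 (-0.028 to 0.12), Klf15 (-0.67 to 0.035), Mef2c (-0.0735 to 0.11), Mrtfa (-0.15 to 0.042), Zfpm1 (-0.16 to 0.0475), Meis2 (-0.25 to 0.024), Irx2 (-0.31 to 0.0897) and Tbx2 (-0.23 to 0.0033). None of these was called in any of these fits.

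Deviations from the group means correlated at 0.0697, -0.117 and 0.0253 for same-numbered arrays, and at -0.113 to 0.0848 for differently numbered ones. The labels do not say whether replicate numbers pair the arrays, and these correlations cannot settle it, since a pairing could touch few genes. With the number as a replicate block, 4 factors were higher and 9 lower (2369 and 1679 genes), Casz1 and Hand1 losing their call. Array weights and centring on the array median changed no call among the factors. The cause of these differences was not tested. Values relative to a median show no signal over background, so it is unknown which factors were near the detection limit.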
